A study of Mus musculus with 8 samples.

Results

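The 10 genes described here encode 6 small leucine-rich proteoglycans of the extracellular matrix and 4 further markers of the fibroblasts that make it. They were taken by name from the 55487 genes of the deposited table, with symbols from GENCODE release M21 on GRCm38, and all 10 were found there. The proteoglycans were decorin (Dcn), biglycan (Bgn) and asporin (Aspn) of class I, lumican (Lum) and Prelp of class II, and osteoglycin (Ogn) of class III. The markers were dermatopontin (Dpt), fibulin-1 (Fbln1), the microfibril protein Mfap5 and the platelet-derived growth factor receptor Pdgfra. RNA came from skeletal muscle of 8 male C57BL/6J mice, 10 weeks old, whose hindlimbs were held in casts for 8 days. All 8 mice were given K14Q MOTS-c at 15 mg/kg/day, as 2 intraperitoneal injections per day. MOTS-c is a small protein encoded in mitochondrial DNA, and K14Q is a variant of it in which a lysine is replaced by glutamine. The sample labels name vastus lateralis as the muscle, whereas the series description and the methods of the study name gastrocnemius. The mice given wild-type MOTS-c and the control mice were not analysed here, so the values describe 1 condition, and no difference below is an effect of treatment.

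Small leucine-rich proteoglycans are secreted proteins with a core of leucine-rich repeats, and most carry sugar chains. Several of them bind fibrillar collagen, limit the width of its fibrils, and hold growth factors such as TGF-beta in the matrix. In skeletal muscle they are made mainly by the fibroblasts of the connective tissue between and around fibres. The resident muscle fibroblasts, also called fibro-adipogenic progenitors, carry the PDGFRA protein on their surface. RNA of whole muscle cannot tell fewer fibroblasts from less RNA per fibroblast.

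The recovered total was between 23985356 and 33012497 reads per library, and the 10 most abundant genes took 18.8% to 26.2% of them. The lowest count of any of the 10 genes was 54, for Fbln1 in mouse 7, so that all 10 reached 10 counts in each library, as did 27.3% of the genes in the table. The 10 genes together took from 0.0358% of the normalized counts in mouse 7 to 0.0714% in mouse 2. All 10 muscle fibre genes that were checked (Ckm, Acta1, 4 myosin heavy chains, Tnnt3, Mylpf, Mb and Ttn) were present in every library, which identifies skeletal muscle but not which muscle.

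Decorin was by far the most abundant of the 6 proteoglycan transcripts. Dcn (ENSMUSG00000019929, chromosome 10, 97479609 to 97518143 of GRCm38), which binds collagen and TGF-beta, ran from 6835 normalized counts in mouse 7 through a median of 9875 to 13748 in mouse 2. Its mean was 9785 ± 2286 (SD, n = 8), and mice 1 and 2 were above the other 6 mice. Biglycan is the nearest relative of decorin. Bgn (ENSMUSG00000031375, chromosome X, 73483602 to 73495933) ran from 864 in mouse 8 through a median of 1760 to 2326 in mouse 1, with a mean of 1649 ± 503 normalized counts (SD, n = 8). Asporin belongs to class I by its sequence but lacks the usual sugar chains, and it too was highest in mouse 1 and lowest in mouse 8. Aspn (ENSMUSG00000021388, chromosome 13, 49544443 to 49567565) ran from 421 in mouse 8 through a median of 848 to 1161 in mouse 1, with a mean of 821 ± 252 (SD, n = 8). For Dcn, by contrast, mouse 7 was the lowest.

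Lumican and Prelp belong to class II and differed in which mouse was lowest. Lum (ENSMUSG00000036446, chromosome 10, 97565128 to 97572703), a keratan sulfate proteoglycan that shapes collagen fibrils, ran from 171 normalized counts in mouse 5 through a median of 381 to 545 in mouse 2. Its mean was 369 ± 122 (SD, n = 8), and the next lowest mouse, mouse 8, had 258. Prelp (ENSMUSG00000041577, chromosome 1, 133910304 to 133921414), which links basement membranes to connective tissue, ran from 328 in mouse 8 through a median of 801 to 1089 in mouse 1. Its mean was 753 ± 271 (SD, n = 8), and mouse 7, with 379, lay near mouse 8, whereas the other 6 mice had 742 to 1089. A share of 9.68% of the exon bases of Prelp also belongs to Gm15851, and reads there could have been given to either gene or to none. Osteoglycin, also called mimecan, is the class III member, and its mice lay furthest apart among the 6 proteoglycans. Ogn (ENSMUSG00000021390, chromosome 13, 49608046 to 49624501) ran from 597 in mouse 8 through a median of 1050 to 2082 in mouse 2, with a mean of 1194 ± 526 (SD, n = 8).

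Of the 4 other markers, Fbln1 varied most between mice and Mfap5 had its own order of mice. Dpt (ENSMUSG00000026574, chromosome 1, 164796644 to 164824266), whose protein binds decorin and collagen, ran from 373 normalized counts in mouse 7 through a median of 477 to 747 in mouse 2, with a mean of 492 ± 124 (SD, n = 8). Fbln1 (ENSMUSG00000006369, chromosome 15, 85205949 to 85286535), an elastic fibre and basement membrane protein, ran from 59.6 in mouse 7 through a median of 174 to 265 in mouse 1. Its mean was 173 ± 78.4 (SD, n = 8), and mice 7 and 8, with 59.6 and 66.8, were apart from the other 6, whose lowest value was 155. Mfap5 (ENSMUSG00000030116, chromosome 6, 122505845 to 122529290), a component of fibrillin microfibrils, ran from 212 in mouse 8 through a median of 304 to 511 in mouse 5, with a mean of 336 ± 102 (SD, n = 8). Mouse 5, the highest for Mfap5, was the lowest for Lum. Pdgfra (ENSMUSG00000029231, chromosome 5, 75152292 to 75198215), the receptor that marks muscle fibroblasts, ran from 492 in mouse 8 through a median of 768 to 1082 in mouse 2. Its mean was 743 ± 193 (SD, n = 8), and 6.50% of its exon bases are shared with Gm42802, Gm42803 or Mir7025.

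To compare levels between genes, the normalized counts were divided by the length of all exons of the gene. Dcn was the highest with 1676 ± 392 normalized counts per kb (SD, n = 8), and Ogn followed with 465 ± 205. Then came Aspn (349 ± 107), Dpt (285 ± 71.7), Bgn (270 ± 82.4), Prelp (208 ± 74.9), Lum (151 ± 49.8), Mfap5 (93.7 ± 28.6), Pdgfra (74.1 ± 19.2) and Fbln1 (39.6 ± 18.0), all as normalized counts per kb (SD, n = 8). Of the 9 pairs of neighbours in this order, 2 differed in an exact two-sided permutation test over mice with Benjamini-Hochberg adjustment. Dcn was above Ogn by 1.93 ± 0.40 (SD, n = 8) on the log2 scale and Pdgfra above Fbln1 by 1.04 ± 0.54, each in 8 of 8 mice (exact p = 0.0078, the smallest that 8 mice can give, adjusted p = 0.035). Ogn and Aspn differed by 0.37 on the log2 scale, higher in 7 of 8 mice, and Bgn and Prelp by 0.42, also in 7 of 8 (both adjusted exact p = 0.070). The other 5 pairs had adjusted exact p-values from 0.11 to 0.48, so their order was not settled by 8 mice. The place of Bgn depended on the length used. With its longest transcript (2666 bases in place of 6099 of exon), Bgn was second after Dcn, with 618 ± 189 normalized counts per kb (SD, n = 8). With that length for every gene, 3 of the 9 neighbour pairs differed, Dcn above Bgn, Dpt above Prelp and Pdgfra above Fbln1 (each adjusted exact p = 0.023).

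**Figure D1:**
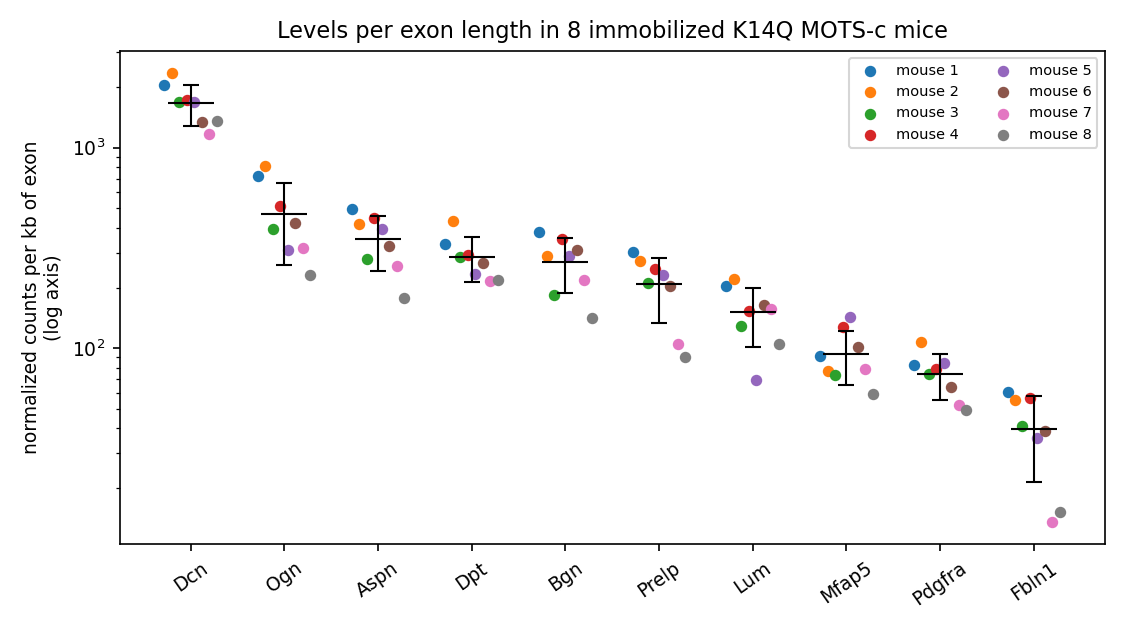
Normalized counts per kb of exon (log axis) of the 10 genes, ordered by mean; each point is 1 of the 8 mice, and the bar and whiskers are mean and SD. Dcn (1676 normalized counts per kb) stands above Ogn (465), and mice 7 and 8 lie lowest for Aspn, Dpt, Prelp, Pdgfra and Fbln1.

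As a share of the summed level per kb of the 6 proteoglycans, Dcn took 54.3% ± 5.3 (SD, n = 8), from 48.7% in mouse 6 to 64.4% in mouse 8. Ogn took 14.4% ± 2.8, Aspn 11.1% ± 1.7, Bgn 8.71% ± 1.85, Prelp 6.52% ± 1.32 and Lum 4.91% ± 1.35 (SD, n = 8). Mouse 8 had the largest share of Dcn but the lowest shares of Aspn (8.51%) and Prelp (4.32%), so the mix of proteoglycan transcripts was not the same in all mice. Mouse 5 had the lowest shares of Lum (2.33%) and Ogn (10.4%) and the largest of Aspn (13.2%) and Prelp (7.72%). Divided by the longest transcript instead, the share of Dcn was 54.3% ± 5.6 and that of Bgn 16.0% ± 3.2 (SD, n = 8).

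Between mice, most of the 10 genes were high or low together. Mice 1 and 2 were among the highest 2 mice for 8 and 6 of the 10 genes. Mouse 8 was among the lowest 2 for 9 genes and mouse 7 for 6. The median deviation from the gene means over the 10 genes, on the scale of log2(normalized count + 1), was 0.55 in mouse 2 and 0.54 in mouse 1, against -0.41 in mouse 7 and -0.74 in mouse 8. Mfap5 departed from this order, and Lum did so in part. For Lum, mice 2 and 1 were the highest (545 and 501 normalized counts) and mouse 8 was the second lowest (258). Mouse 5 lay 1.03 below the mean of Lum (a deviation of -1.03) and 0.66 above that of Mfap5, while the deviation of mouse 2 was 0.64 for Lum and -0.23 for Mfap5. Mouse 7, which was low for most of the genes, had a deviation of 0.14 for Lum.

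**Figure D2:**
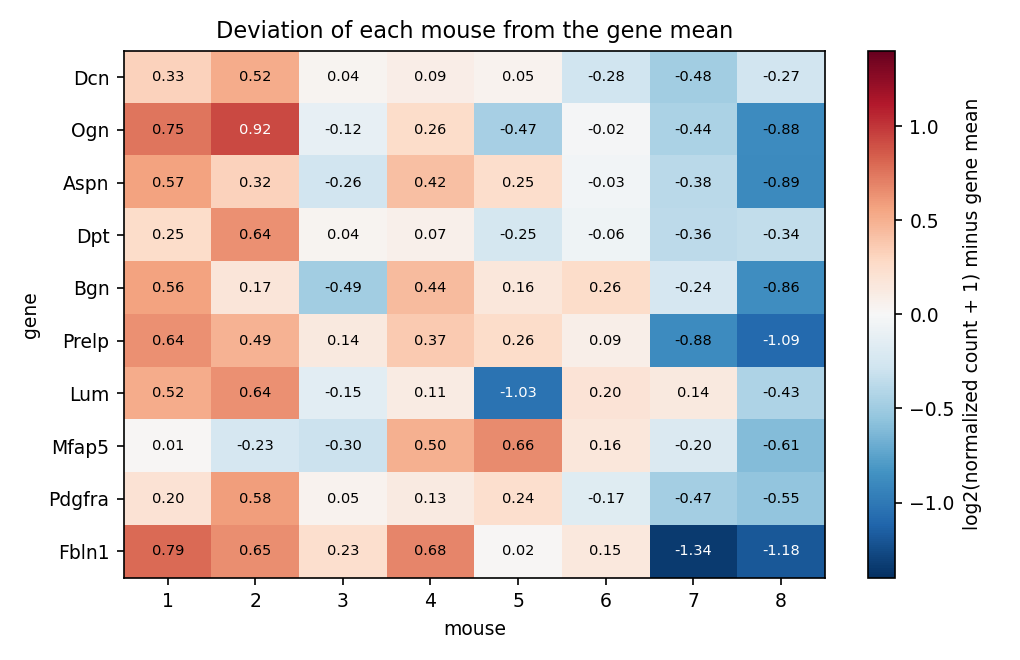
Deviation of each of the 8 mice (columns) from the mean of each gene (rows), in log2(normalized count + 1), with red above and blue below the mean. Mice 1 and 2 are mostly above and mice 7 and 8 mostly below, with Fbln1 at -1.34 in mouse 7, and mouse 5 differs between Lum (-1.03) and Mfap5 (0.66).

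The spread between mice lay above the average trend for genes of the same abundance. The biological coefficient of variation, which is the spread beyond counting error, was estimated per gene with edgeR and compared with the trend over all genes. It was above the trend for 10 of 10 genes, against 29.4% of the 16513 genes whose mean reached 10 normalized counts. The gene's own value over the trend had a median of 1.99 for the 10 genes and 0.744 over all genes. It was largest for Fbln1 (51.1% against 18.5%), Ogn (42.3% against 16.2%) and Prelp (40.3% against 15.8%). It was smallest for Dcn, with 23.0% against 17.1%. The other 6 genes had 23.3% to 34.9%. Without mouse 8 the median over the 10 genes was 1.60, with all 10 still above the trend, and without mouse 2 the trend was exceeded by 9. Among the 10 genes, Dcn and Dpt lay at percentiles 86.0 and 88.4 of all genes by this ratio. Some other matrix, tendon and fat genes had ratios above the median of the 10, such as Fmod (4.52), Col12a1 (3.55), Fbn1 (3.09), Col1a1 (2.75) and Adipoq (2.55). So did red blood cell genes such as Hbb-bt (3.22) and macrophage genes such as Cd68 (3.13) and Cd163 (2.44). This is a description with no test, and the genes were chosen with earlier results of these data known.

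**Figure D3:**
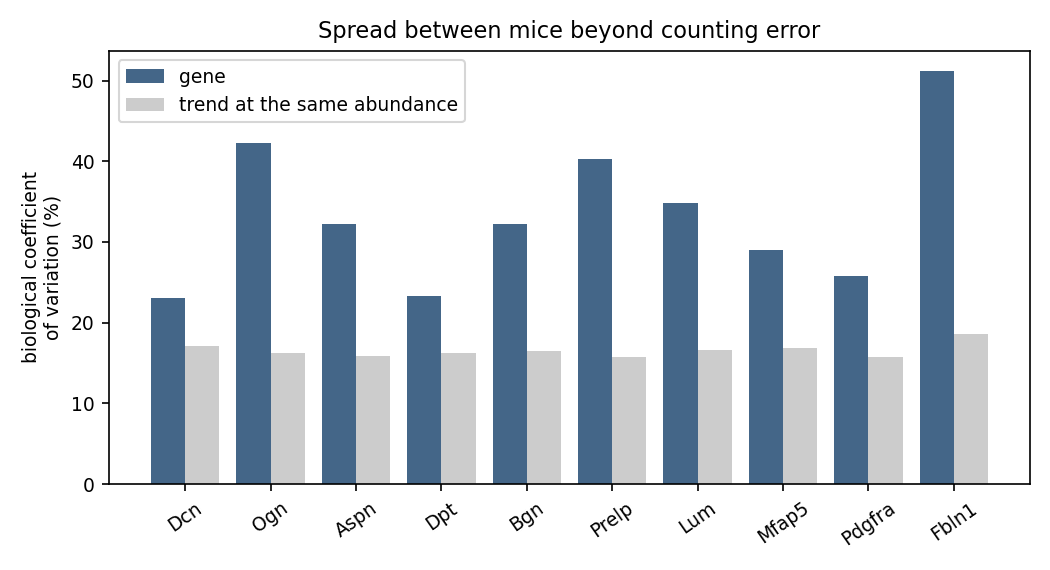
Biological coefficient of variation (percent) of each of the 10 genes over 8 mice (dark bars) beside the edgeR trend at the same abundance (grey bars). Every dark bar is above its grey bar, from Dcn (23.0% against 17.1%) to Fbln1 (51.1% against 18.5%).

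To test which genes followed decorin, each gene was fitted by limma against the level of Dcn over the 8 mice, and p-values were adjusted over all 16512 other genes. The slope is the log2 change of a gene per log2 change of Dcn. None of the 9 other genes passed at an adjusted p of 0.05, and neither did any of the 16512 genes (0%). All 9 slopes were above 0, against 47.9% of all genes. At an unadjusted p under 0.05, 6 of the 9 had a positive slope, against 8.1% of all genes, and 0 of 9 a negative one, against 4.79%. With edgeR's quasi-likelihood test on the recovered counts 0 of 9 passed (0% of all genes), and with DESeq2 5 of 9 passed with a positive slope (1.54% of all genes). Pdgfra had a slope of 1.06 ± 0.18 (SE, adjusted p = 0.069 with limma), Dpt of 0.89 ± 0.19 and Fbln1 of 2.06 ± 0.45 (SE, adjusted p = 0.085 and 0.087 with limma). With all 8 mice, Lum (0.58 ± 0.47) and Mfap5 (0.22 ± 0.40) had the slopes nearest 0 (SE, adjusted p = 0.64 and 0.86 with limma). The slope of Lum depended on single mice. It was 0.14 without mouse 2 and 1.03 without mouse 7, where Bgn (0.87) and Dpt (0.97) were nearer 0. Without mouse 5 it was 0.66 ± 0.28 (SE, unadjusted p = 0.042 and adjusted p = 0.36 with limma).

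Against Pdgfra, the surface receptor of the fibroblasts, 3 of the 9 other genes passed the limma test, all with a positive slope, against 1.69% of all genes. No gene passed with a negative slope (0.303% of all genes). All 9 slopes were above 0 (48.6% of all genes), and at an unadjusted p under 0.05 there were 7 of 9 positive (10.7%) and 0 of 9 negative (6.53%). Those that passed were a proteoglycan of each of classes I and II and a fibulin. Prelp rose with Pdgfra with a slope of 1.51 ± 0.24 (SE, adjusted p = 0.018 with limma). Dcn rose with a slope of 0.81 ± 0.16 and Fbln1 with 1.88 ± 0.36 (SE, both adjusted p = 0.032 with limma). Aspn (1.07 ± 0.24, adjusted p = 0.053), Ogn (1.28 ± 0.32, adjusted p = 0.069), Dpt (0.73 ± 0.18, adjusted p = 0.072) and Bgn (0.81 ± 0.32, adjusted p = 0.23) did not pass (SE, limma). Lum, with 0.38 ± 0.43 (adjusted p = 0.69), and Mfap5, with 0.47 ± 0.33 (adjusted p = 0.49), were again nearest 0 (SE, limma). A slope that misses the threshold here does not show that a gene was independent of Pdgfra. Without mouse 7, 0 of the 9 passed, as did 1 of the 16512 genes in all, and without mouse 8 there were 0 of 9 and 0 genes in all, against 329 with all 8 mice. The slopes without mouse 7 and without mouse 8 were 0.74 and 0.98 for Dcn, 1.39 and 1.27 for Prelp, and 1.56 and 1.74 for Fbln1. Without mouse 1, 1 of 9 passed (117 genes in all), and without mouse 5, 5 of 9 (159 genes in all). DESeq2 called 6 of 9 (3.53% of all genes) and edgeR 2 of 9 (1.19%). With each library's trend on GC content and length removed, 0 of 9 passed, and 38 of 16467 genes in all. That removal left slopes of 0.83 for Dcn, 1.77 for Prelp and 2.21 for Fbln1.

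**Figure D4:**
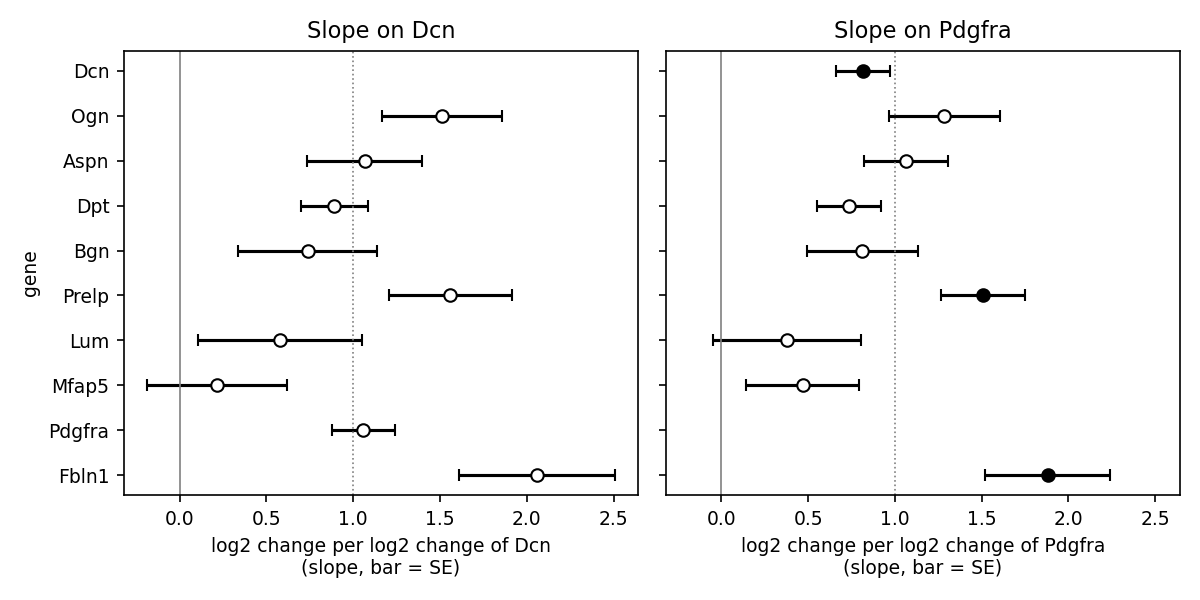
Slope (point) and SE (bar) of each gene on the log2 level of Dcn (left) and of Pdgfra (right) over 8 mice; filled points passed an adjusted p of 0.05 with limma, and the dotted line marks a slope of 1. Dcn, Prelp and Fbln1 are filled on the right (slopes of 0.81, 1.51 and 1.88), none on the left, and Lum and Mfap5 lie nearest 0.

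Pearson's r of log2(normalized count + 1) with Pdgfra was 0.93 for Dcn (exact permutation p = 0.0018, adjusted p = 0.090 over 16512 genes), and Spearman's rho was 0.86 (exact permutation p = 0.011). It was 0.90 for Prelp (exact permutation p = 0.0023, adjusted p = 0.096), with a rho of 0.88 (exact permutation p = 0.0072), and 0.86 for Fbln1 (exact permutation p = 0.0076, adjusted p = 0.14), with a rho of 0.62 (exact permutation p = 0.11). Without mice 2 and 8, the 2 farthest from the median of Pdgfra, r was 0.93 for Dcn, 0.92 for Prelp and 0.84 for Fbln1. Without the same mice, r fell from 0.79 to 0.45 for Ogn and from 0.83 to 0.60 for Dpt. It fell from 0.63 to 0.46 for Bgn and from 0.83 to 0.78 for Aspn. For Lum, r was 0.27 (exact permutation p = 0.53, adjusted p = 0.78) and rho 0.31 (exact permutation p = 0.46), and r turned to -0.32 without the same 2 mice. For Mfap5, r was 0.42 (exact permutation p = 0.30, adjusted p = 0.62) and rho 0.43 (exact permutation p = 0.30), with r = 0.54 without the 2 mice. The exact test called 73 of 16512 genes with a positive r, none of them among the 9, and 20 with a negative r.

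Several of these proteoglycan genes lie beside each other in the genome, in clusters with further members of the family. On chromosome 10, Dcn and Lum are 47.0 kb apart, followed by Kera (keratocan) and Epyc (epiphycan). On chromosome 13, Aspn and Ogn are 40.5 kb apart, with Omd (osteomodulin) between them and Ecm2 before Aspn. On chromosome 1, Prelp lies between Optc (opticin) and Fmod (fibromodulin), with 116 kb between Prelp and Fmod. RefSeq promoter windows of the same assembly (GRCm38.p6), from 250 bases before to 50 after the start of a transcript, were found for 7 of the 10 genes. Those of the neighbours Aspn and Ogn are shown, with that of Bgn, the class I relative of Aspn on another chromosome, read 5′ to 3′ on the strand of the gene. Capitals mark matches to the TATA box, written TATAAA. They also mark the core read by TEAD factors, written GGAATG, and a GC box, written CCGCCC. Each was searched on both strands.
Aspn promoter, chr13:49544193-49544492, plus strand: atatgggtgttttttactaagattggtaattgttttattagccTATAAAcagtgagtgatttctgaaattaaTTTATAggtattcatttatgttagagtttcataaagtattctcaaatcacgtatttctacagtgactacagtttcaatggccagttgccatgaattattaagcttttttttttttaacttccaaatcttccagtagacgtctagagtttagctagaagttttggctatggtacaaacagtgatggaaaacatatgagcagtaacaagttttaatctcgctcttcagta
Ogn promoter, chr13:49607765-49608064, plus strand: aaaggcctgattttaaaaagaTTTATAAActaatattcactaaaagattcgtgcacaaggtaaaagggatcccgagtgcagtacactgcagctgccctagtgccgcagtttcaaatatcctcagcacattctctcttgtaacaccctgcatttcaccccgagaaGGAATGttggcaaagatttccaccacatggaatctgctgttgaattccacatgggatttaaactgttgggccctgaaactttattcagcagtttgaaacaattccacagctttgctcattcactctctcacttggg
Bgn promoter, chrX:73483351-73483650, plus strand: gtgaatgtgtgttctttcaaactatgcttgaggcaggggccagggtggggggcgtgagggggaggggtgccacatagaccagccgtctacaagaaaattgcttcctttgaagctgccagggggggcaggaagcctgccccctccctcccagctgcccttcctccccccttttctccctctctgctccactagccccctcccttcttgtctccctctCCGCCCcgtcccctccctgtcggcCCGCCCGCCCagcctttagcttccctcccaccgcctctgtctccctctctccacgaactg

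The windows differ in base composition. GC content was 31.0% for Aspn, 42.3% for Ogn and 63.7% for Bgn, at percentiles 1.28, 14.9 and 79.1 of 32851 promoter windows. TATAAA was found in the windows of Aspn, Ogn and Dpt, against 13.6% of all windows, and in Ogn the 2 matches overlap on opposite strands. Counted in bases from the start site, the matches lay at -207 and -178 in Aspn and at -227 and -229 in Ogn. The match in Dpt lay at 13, after the start site. GGAATG was found only in that of Ogn among the 8 windows of the 7 genes, against 14.7% of all. CCGCCC was found in Bgn, where 2 of the 3 matches overlap, and in 1 of the 2 windows of Fbln1, against 35.7% of all. Prelp and Pdgfra held none of these 3 motifs. A match is a run of letters and not evidence of binding, and the motifs were chosen after the sequences were seen.

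On chromosome 13 mouse 8 was the lowest for Ecm2, Aspn, Omd and Ogn alike, whereas mouse 5 was above the mean for Aspn (deviation 0.25) and below it for Ogn (-0.47). On chromosome 10 the lowest mouse was mouse 7 for Dcn and mouse 5 for Lum. Omd, which resembles osteoglycin and keratocan in its repeats, ran from 39.4 normalized counts in mouse 8 through a median of 77.5 to 138 in mouse 2 and rose with Pdgfra (slope 1.52 ± 0.20, SE, adjusted p = 0.011 with limma). Ecm2, a matrix protein with leucine-rich repeats, ran from 293 in mouse 8 to 633 in mouse 1 and did not pass (slope 0.75 ± 0.21, SE, adjusted p = 0.10 with limma). Kera, next to Lum and known from cornea and tendon, ran from 8.76 in mouse 8 to 101 in mouse 2, with only 8 counts in its lowest library. Its slope on Pdgfra was 2.29 ± 0.67 (SE, adjusted p = 0.11 with limma). Fmod, a collagen-binding proteoglycan that is abundant in tendon, ran from 211 in mouse 8 through a median of 1592 to 2853 in mouse 1. It rose with Pdgfra with a slope of 2.93 ± 0.54 (SE, adjusted p = 0.028 with limma), against 1.51 for its neighbour Prelp, and the difference of these slopes was not tested. Epyc and Optc were near 0, with at most 1 and 3 counts in a library.

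**Figure D5:**
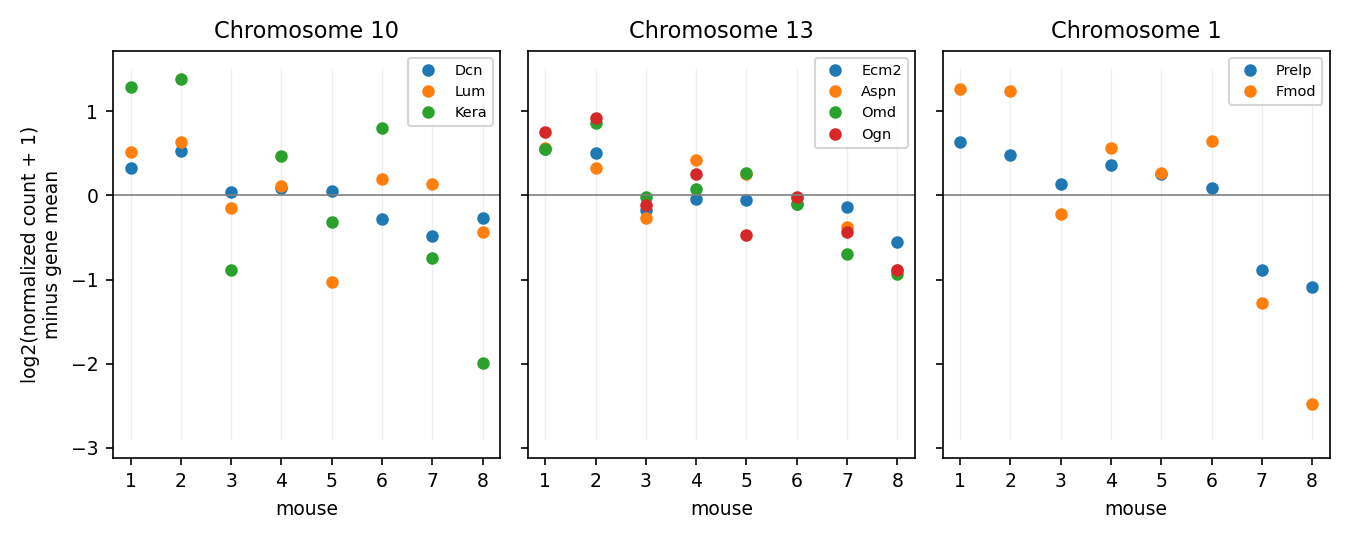
Deviation of each of the 8 mice from the gene mean, in log2(normalized count + 1), for neighbouring proteoglycan genes on chromosomes 10, 13 and 1. The 4 genes on chromosome 13 are above their means in mice 1 and 2 and lowest in mouse 8, Lum is lowest in mouse 5, and Fmod reaches further down than Prelp in mouse 8.

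Among the other genes of the proteoglycan family, 7 of 11 had a mean of at least 10 normalized counts, and 2 of the 7 (Fmod and Omd) passed against Pdgfra, none with a negative slope, beside 1.69% of all genes passing with a positive slope. The median slope of the 7 was 1.52, against -0.012 over all genes. Of 9 fibrillar and fibril-associated collagen genes, 2 passed, Col12a1 (slope 2.26 ± 0.45, SE, adjusted p = 0.034 with limma) and Col14a1 (1.60 ± 0.35, adjusted p = 0.044), with a median slope of 0.85. The most abundant of them did not pass. Col3a1, the chain of type III collagen, had 2965 ± 1181 normalized counts (SD, n = 8) and a slope of 0.85 ± 0.50 (SE, adjusted p = 0.41 with limma), and Col1a2 had 2426 ± 886 and a slope of 0.92 ± 0.36 (adjusted p = 0.23). Col5a3, a chain of type V collagen, had a negative slope of -0.47 ± 0.19 (SE, adjusted p = 0.26 with limma), the only 1 of the 9 below 0. Mouse 3 was the lowest for both collagens, with 1230 and 1252 normalized counts, but not for Dcn.

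Of 19 genes tested that build the sugar chains, of 20 listed, 2 passed against Pdgfra with a positive slope, beside 1.69% of all genes, and the median slope was 0.21. They were Dse (0.90 ± 0.19, SE, adjusted p = 0.043 with limma) and Dsel (1.05 ± 0.23, adjusted p = 0.049), which turn glucuronic into iduronic acid to make dermatan sulfate, the type of chain found on decorin and biglycan. The 2 most abundant, Fam20b (1782 ± 138 normalized counts, SD, n = 8), a kinase of the linkage region, and Csgalnact2 (1528 ± 112), which starts chondroitin chains, had slopes of 0.07 ± 0.13 and 0.03 ± 0.13 (SE, adjusted p = 0.81 and 0.93 with limma). Of 11 elastic fibre and microfibril partners tested, of 12 listed, 1 passed (Hmcn1, hemicentin-1, slope 1.35 ± 0.28, SE, adjusted p = 0.038 with limma), with a median slope of 0.73. The list includes Fbln2 (1403 ± 303 normalized counts, SD, n = 8) with a slope of 0.73 ± 0.17 (SE, adjusted p = 0.062 with limma).

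Ligands and receptors were tested in the same way, with 1.69% of all genes passing with a positive slope. Of 6 genes of the PDGF axis other than Pdgfra, 0 passed against it with limma and 3 had a positive slope at an unadjusted p under 0.05, beside 10.7% of all genes. They include Pdgfd, a PDGF ligand that acts mainly on the beta receptor, with a slope of 1.12 ± 0.27 (SE, adjusted p = 0.062 with limma). Of 8 genes reported as receptors of decorin or biglycan, 1 passed. Lrp1, an endocytic receptor that takes up decorin, had 2180 ± 725 normalized counts (SD, n = 8) and rose with a slope of 1.41 ± 0.16 (SE, adjusted p = 0.0087 with limma). Tlr2, an innate immune receptor to which free biglycan binds, had a negative slope of -1.03 ± 0.34 (SE) that did not pass (adjusted p = 0.16 with limma). Of 6 TGF-beta ligands and receptors, 1 passed (Tgfbr2, slope 0.71 ± 0.15, SE, adjusted p = 0.041 with limma).

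Among 13 other fibroblast markers tested, of 15 listed, 3 passed with a positive slope, beside 1.69% of all genes, with a median slope of 0.81. Gsn, an actin-severing protein abundant in muscle fibroblasts, had 15169 ± 4005 normalized counts (SD, n = 8) and a slope of 1.03 ± 0.14 (SE, adjusted p = 0.011 with limma). Cd34 had a slope of 0.87 ± 0.12 (adjusted p = 0.013) and Dpp4, a marker of fibroblasts near vessels and fascia, of 1.57 ± 0.27 (SE, adjusted p = 0.023 with limma). Smoc2, a matrix protein made by another set of fibroblasts, had 2689 ± 253 normalized counts (SD, n = 8) and a slope of -0.14 ± 0.15 (SE, adjusted p = 0.67 with limma). Tcf21 had 0 counts in all 8 libraries.

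Some markers of other cells passed against Pdgfra, all with a positive slope, beside 1.69% of all genes. Of 8 tendon markers, 2 passed (Mkx and Fmod, which is also counted above with the proteoglycans), and 7 of the 8 slopes were positive. The summed level of the 8 ran from 930 normalized counts in mouse 8 to 6329 in mouse 1. Scx had a slope of -0.19 ± 0.36 (SE, adjusted p = 0.83 with limma) and was highest in mouse 8, with 86.5 normalized counts. Of 9 macrophage markers, 4 passed (Adgre1, Cd163, Csf1r and Mrc1), with sums from 1824 in mouse 7 to 4527 in mouse 4. The slope was positive for 8 of the 9, whereas Cd68 had -0.34 ± 0.61 (SE, adjusted p = 0.81 with limma). Cd68 was lowest in mouse 2, with 212 normalized counts. Of 6 adipocyte markers, 3 passed (Adipoq, Cfd and Cidec), with sums from 717 in mouse 8 to 2361 in mouse 2. Of 8 endothelial markers, 1 passed (Emcn), with sums from 4177 in mouse 8 to 6206 in mouse 2, and 6 of the 8 slopes were positive. Egfl7 (-0.21 ± 0.20, adjusted p = 0.63) and Cldn5 (-0.04 ± 0.27, adjusted p = 0.96) had negative slopes (SE, limma). Both were highest in mouse 8. None of 7 mural cell, 6 Schwann cell, 5 satellite cell (of 6 listed), 5 red blood cell and 10 muscle fibre genes passed with limma, and at an unadjusted p under 0.05 the positive slopes numbered 3, 0, 2, 0 and 0, beside 10.7% of all genes. The sums of these 5 lists ran from 15167 to 23168, 1830 to 3458, 1186 to 1687, 7060 to 28320 and 2052260 to 4138030 normalized counts. No gene of these lists was at 0 in all libraries. The part of connective tissue, fat or macrophages in the samples in the pattern of the 10 genes was not tested.

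The genes whose values were most like those of Dcn, over the 8 mice and among 11089 other genes whose mean reached 100 normalized counts, were Yy1 (r = 0.98), Ifi207 (r = 0.98), Abca8a (r = 0.97), Stag2 (r = 0.97) and Steap4 (r = 0.96). All 5 were highest in mouse 2 and lowest in mouse 7, as Dcn was. Those most unlike it were Pgap2 (r = -0.98), Cdc37 (r = -0.97) and Sdhaf1 (r = -0.96). Among those most like Pdgfra were Gsn (r = 0.99), Pls3, Rgl1 and Nrp1 (each r = 0.98), all highest in mouse 2. These r values are descriptions of genes picked as extremes from 8 mice, and no p is given for them.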

How the data were processed

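Polyadenylated RNA of 8 muscles was sequenced on an Illumina NextSeq platform. The authors checked reads with FastQC, mapped them with STAR to GRCm38 and counted them per gene with summarizeOverlaps; fastp is named in the submitters' processing notes, and the annotation release and use of strand are not given in the sources used here. The deposited signal is a gene count that the authors had divided by 1 size factor per library (0.906 to 1.20). Multiplying by that factor, read from the smallest steps between values, gave whole reads for 100% of the values, within 0.01 of a read, and these recovered reads were used as counts. They carry no molecular identifiers, so that intervals of counting would cover counting error only. Of 55487 gene identifiers, 55227 were found in GENCODE M21. No library repeated another (chi-square over its degrees of freedom lay between 14.9 and 108 in the 28 pairs). That the 8 samples are separate mice is taken from the labels and methods.

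Genes whose mean reached 10 normalized counts were fitted with limma (trend) on log2(normalized count + 1), against the level of Dcn or Pdgfra, with Benjamini-Hochberg adjustment over all of them. A fitted slope on this scale understates changes of low genes. Neighbours in level were compared with an exact two-sided test over 256 sign flips. A simulation for the slope on Dcn covered 16512 genes. In it, limma called 26% of 100 planted slopes of size 1 and 89% of 100 of size 2, and 4 other genes. Its counts were drawn with the spread of the trend and with no relation among the other genes. The 10 genes had a median spread of 1.99 times that trend, so these shares do not carry over to them. The slope on Pdgfra was not simulated. The members and gene lists were chosen with earlier results of these data known, so no list is independent evidence. Named by rule were the 10 members, up to 4 of the most abundant genes per list, genomic neighbours, the 5 genes most like Dcn or Pdgfra and the 3 most unlike Dcn. Other genes were named because they passed the test, stood apart in 1 mouse or had 0 counts. These, with Tlr2, Col5a3, Scx, Egfl7, Cldn5 and those named for their spread, were chosen after their values were seen. Some genes that these rules or lists would include are not reported here. Alternatives were TMM factors, library totals, a pseudocount of 5, no filter or a mean of at least 50, edgeR's quasi-likelihood test, DESeq2, removed trends on GC content and length, the longest transcript, the median, and leaving out each mouse. R 4.3.3, limma 3.58.1, edgeR 4.0.16, DESeq2 1.42.0, Python 3.11.15, numpy 2.4.6, scipy 1.17.1 and pandas 2.3.3 were used.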

Additional observations from a re-analysis of the deposited data

Results flagged for a closer look

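Of 189 values examined, 7 had 1 mouse whose gap to the nearest other, as a share of the whole range, was above Dixon's 95% critical value, where chance gives about 9.45 (1 in 20). None of the 10 genes was among them. Mouse 7 was apart for the summed Schwann cell markers (3458 normalized counts against 1830 to 2412, gap 0.642) and within that list for Pmp22 (gap 0.537), Prx (0.549) and S100b (0.581), which encode proteins of myelin or of the cells that make it. Mouse 5 was the highest for Fam20b (2065 normalized counts against 1621 to 1829, gap 0.531) and the lowest for Smoc2 (2153 against 2590 to 2974, gap 0.532). Mouse 4 was the highest for Tlr4 (507 against 173 to 329, gap 0.533).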

How the results depend on the processing

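Against Pdgfra, 3 of 9 genes passed with limma, and 329 genes in all. DESeq2 gave 6 of 9 and 749 in all, and the fit after removal of GC and length trends gave 0 of 9 and 38. The exact permutation test of r gave 0 of 9, with 73 positive and 20 negative genes in all. Leaving out mice in turn gave 0 (mouse 7 or mouse 8) to 5 of 9, and 0 (mouse 8; 1 for mouse 7) to 245 genes in all. Against Dcn, where 0 of 9 passed, DESeq2 gave 5 of 9 and 357 genes in all, a fit with no filter on low values 1 of 9 and 36, and leaving out mice 0 to 4 genes in all. Leaving out mice, the slope of Mfap5 on Dcn ran from -0.030 (without mouse 8) to 0.66, and that of Lum on Pdgfra from -0.072 (without mouse 2) to 0.69. The other 286 slopes of the 10 genes under an alternative kept a positive sign. Scaling by library totals moved the median of all genes by -0.13 to 0.21 per library (log2), and the median slope on Dcn from -0.018 to 0.11. It raised the share of slopes above 0 over all genes from 47.9% to 63.9% on Dcn and from 48.6% to 63.8% on Pdgfra, and at an unadjusted p under 0.05 the negative slopes fell in number from 791 to 234 and from 1079 to 341 of 16512 genes, while the 9 genes still had 6 and 7 positive slopes and 0 negative ones past that p. Of 9 neighbour pairs in level, 2 differed, against 0 to 4 with a mouse left out (4 without mouse 2 or mouse 5) and 3 with the longest transcript, and 7 mice give an exact p of 0.016 at the smallest, so that 3 pairs at that value are needed to pass. The mean normalized counts of the 10 genes moved by less than 1 SD with TMM factors, library totals, the median or any mouse left out (110 values). Per kb, the longest transcript in place of all exons moved Dcn from 1676 to 2086, Bgn from 270.3 to 618, Mfap5 from 93.7 to 135 and Pdgfra from 74.1 to 109, each by more than 1 SD. The causes were not tested. No paired analysis was possible because all 8 mice belong to the same group. Depth limits what can be said of genes with few counts, such as Kera, with 8 counts in mouse 8.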

Other observations

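Chad, a collagen-binding protein of cartilage and tendon with leucine-rich repeats, ran from 18.6 normalized counts in mouse 8 to 364 in mouse 2, with 160 ± 115 (SD, n = 8), and a slope on Pdgfra of 2.54 ± 0.74 (SE, adjusted p = 0.11 with limma). Podn, a proteoglycan of smooth muscle and matrix, had 298 ± 64.1 normalized counts (SD, n = 8) and a slope of 0.38 ± 0.24 (SE, adjusted p = 0.43 with limma). Pdgfa, a ligand of the PDGFRA receptor, was lowest in mouse 1 (623 normalized counts) and highest in mouse 8 (1119), with a slope of -0.39 ± 0.19 on Pdgfra (SE, adjusted p = 0.32 with limma). No hypothesis is offered for these values.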
